A study of Caenorhabditis elegans with 14 samples.

Results

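The fbxa genes are a family of F-box genes of the nematode Caenorhabditis elegans. They were chosen by symbol, as every row of the deposited count table whose WormBase symbol is fbxa followed by a number. The rule found 170 rows of 20392 genes, with 169 distinct symbols, since 2 identifiers on chromosome X share the symbol fbxa-41. RNA was sequenced from early embryos of 4 genotypes grown at 20 °C. Wild type was strain N2 (3 libraries). The hpl-2 mutant (4 libraries) carries hpl-2(tm1489), a deletion of the gene for the HP1 protein HPL-2. The hpl-2-FFAA strain (4 libraries) carries hpl-2-FFAA(px112), an altered hpl-2 allele. Strain met-2 hpl-2 (3 libraries) carries met-2(n4256), an allele of an H3K9 methyltransferase gene, together with hpl-2(tm1489) on chromosome III, over the balancer hT2 marked with bli-4(e937), let-?(q782) and qIs48. The sources used here do not give whether embryos with the balancer were removed. No label ties a replicate to a culture of its own, so each p-value rests on the spread between these libraries, and that spread may be technical.

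F-box proteins are the substrate adaptors of SCF ubiquitin ligases. The F-box binds a Skp1-like protein, called SKR in the worm, which joins it to the cullin CUL-1 and the RING protein RBX-1, and the rest of the F-box protein holds the target to be ubiquitinated. Most fbxa genes encode an F-box followed by an FTH domain, and the family has grown by local gene duplication in the worm lineage. The function of most members is unknown. HP1 proteins bind histone H3 methylated at lysine 9, the mark that MET-2 and its partners place on silent chromatin, so the genotypes ask how transcripts depend on HPL-2 and on that mark.

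The table holds raw counts per gene, and levels are given as CPM, counts scaled to a common library total, after TMM scaling, mean ± SD. Differences were tested in edgeR's quasi-likelihood (QL) fit of all 4 genotypes, with p adjusted after Benjamini and Hochberg (BH) over all genes tested and a gene called where that p was under 0.05. Library totals were 5332725 to 6390870 counts in the first 3 genotypes and 14313366 to 14840992 in met-2 hpl-2, so low members were measured more precisely in that strain. A count of 0 allows up to 3 counts, or 0.202 to 0.563 CPM per library, and covers counting error only. Transcripts of hpl-2 fell from 95.9 ± 5.46 CPM in wild type to 4.41 ± 0.693 in the deletion, and stood at 65.3 ± 3.29 in hpl-2-FFAA, while met-2 hpl-2 had 10.03 ± 1.30. Transcripts of met-2 stood at 287.7 ± 8.83 CPM in wild type and 29.4 ± 1.81 in met-2 hpl-2. The labels name the cell type as yeast cells. The counts were all to worm genes, and all 10 maternal and 10 early zygotic embryo markers had counts, as did 8 markers of later embryos or larvae and the 6 vitellogenin genes of adult intestine. Within hpl-2-FFAA, replicates 1 and 2 stood apart from replicates 3 and 4: a chi-square of 2 libraries' counts, per degree of freedom, was 2.22 and 1.11 within these pairs and 4.18 to 8.51 across them. Near-identical family members may share reads, and no sequence was at hand to measure this. The use of strand in counting was not stated, so members that overlap another gene's exons (16 on the same strand, 23 on the opposite strand) have uncertain counts.

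Most of the family was silent or nearly so in the early embryo. Of the 170 members, 20 had no count in any of the 14 libraries, and 125 had a mean under 1 CPM in wild type. A further 35 stood at 1 to 10 CPM, and 10 at 10 CPM or more. Of the 60 members on chromosome III, 7 passed the low-count filter of the test (about 1.68 CPM in at least 3 libraries). On chromosome V 23 of 71 passed it, on chromosome I 5 of 6, on chromosome X 4 of 14, on chromosome II 3 of 14 and on chromosome IV 2 of 5. In all 44 members were tested and 126 were not. Of those tested, 29 reached the filter level in all 3 wild-type libraries, and fbxa-16, fbxa-113, fbxa-174 and fbxa-211 passed only with the met-2 hpl-2 libraries included. Likewise fbxa-2, fbxa-13 and fbxa-85 passed only with the wild-type libraries included, and fbxa-2, fbxa-13 and fbxa-141 only with those of hpl-2-FFAA. The members fbxa-2, fbxa-42, fbxa-59, fbxa-113 and fbxa-174 passed only with the hpl-2 mutant libraries included. Where such a member is higher in the genotype that carried it past the filter, that direction was partly fixed by the filter, and the counts of called members include these cases.

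A single gene made up about as much of the family's RNA as all others together. Per kilobase of the deposited gene width, fbxa-215 (WBGene00012879, chromosome IV, 13665364 to 13666909 on the minus strand) had a wild-type level of 275 ± 10.5 CPM, followed by fbxa-210 (WBGene00012565, chromosome V, 18125375 to 18127205 on the plus strand) at 54.8 ± 2.23. Next came fbxa-206 (WBGene00013610, chromosome V, 16917201 to 16918478 on the minus strand) at 30.5 ± 1.51 and fbxa-83 (WBGene00013453, chromosome IV, 14323237 to 14326383 on the minus strand) at 30.4 ± 1.68. The wild-type libraries of these last genes overlapped in level per kilobase, at 28.9 to 31.9 for fbxa-206 and 29.2 to 32.3 for fbxa-83. After them stood fbxa-101 (WBGene00008569, chromosome I, 12958640 to 12959932 on the minus strand) at 22.9 ± 2.23, then fbxa-192 (WBGene00010212, chromosome V, 17640672 to 17650527 on the minus strand) at 18.5 ± 1.15. The next in order, fbxa-170 (WBGene00016486, chromosome X, 1676205 to 1678121 on the minus strand) at 15.3 ± 0.825 and fbxa-140 (WBGene00008130, chromosome I, 12960313 to 12961619 on the minus strand) at 14.9 ± 2.12, also overlapped. All values in this order are levels per kilobase over 3 libraries. The ninth in order, fbxa-153, had wild-type libraries at 9.37 to 13.86 per kilobase, which overlapped those of fbxa-140 at 12.72 to 16.96, so the end of these 8 is not sharp.

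Summed over the family, the level was 771 ± 21.5 CPM in wild type and 929.8 ± 21.97 in the deletion mutant. It was 778 ± 60.5 CPM in hpl-2-FFAA, while met-2 hpl-2 had 798 ± 33.9. All 4 hpl-2 mutant libraries (906 to 957 CPM) lay above all wild-type libraries (747 to 786 CPM). The share held by fbxa-215 was 48.2% to 49.6% in wild type and 51.9% to 52.8% in the deletion mutant. In hpl-2-FFAA it was 47.8% to 52.3%, while met-2 hpl-2 had 35.7% to 37.6%. Without fbxa-215 the sum was 395 ± 9.66 CPM in wild type and 442 ± 7.48 in the deletion mutant. Again without fbxa-215, hpl-2-FFAA had 389 ± 19.99 CPM and met-2 hpl-2 504 ± 13.7. The 3 met-2 hpl-2 libraries, at 763 to 831 CPM in all, thus held a smaller share of fbxa-215 and a larger one of the other members, with a total that overlapped that of wild type.

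**Figure D1:**
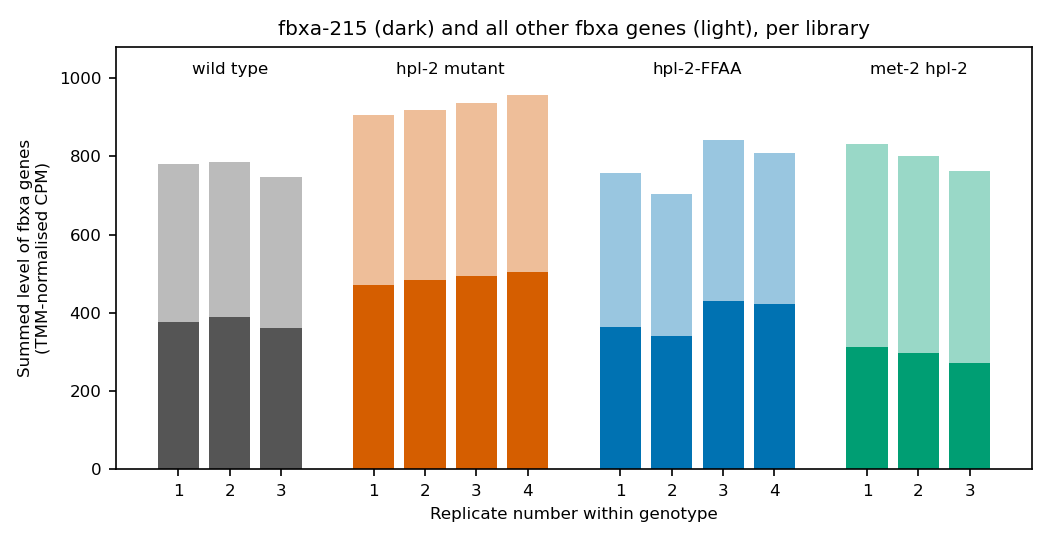
Summed level of the fbxa genes in each library in TMM-normalised CPM, split into fbxa-215 (dark) and all other members (light), by genotype and replicate number. The hpl-2 mutant libraries have the highest totals (906 to 957 CPM), and fbxa-215 takes the smallest share in met-2 hpl-2 (35.7% to 37.6%).

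More members had a count in each met-2 hpl-2 library than in each wild-type library. With every library thinned to 5332725 counts, 89 to 98 members had a count in wild type and 101 to 105 in the deletion mutant. Thinned hpl-2-FFAA libraries had 88 to 102 and met-2 hpl-2 libraries 105 to 113. Before thinning these numbers, in the same order of genotypes, were 90 to 101, 102 to 107, 89 to 107 and 126 to 129. Over all genes of the table, 13132 to 13213 had a count in thinned wild-type libraries and 14151 to 14598 in thinned met-2 hpl-2 libraries, so the larger number was not particular to the family. The 126 untested members summed to 22.4 ± 2.81 CPM in wild type and 28.3 ± 2.53 in the deletion mutant. Their sum was 24.9 ± 1.89 CPM in hpl-2-FFAA, while met-2 hpl-2 had 39.6 ± 1.86. The highest mean of any of them was 2.09 CPM, that of fbxa-19 in met-2 hpl-2, against 0.50 CPM in wild type. These are descriptions of levels near the detection limit, with no test.

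**Figure D2:**
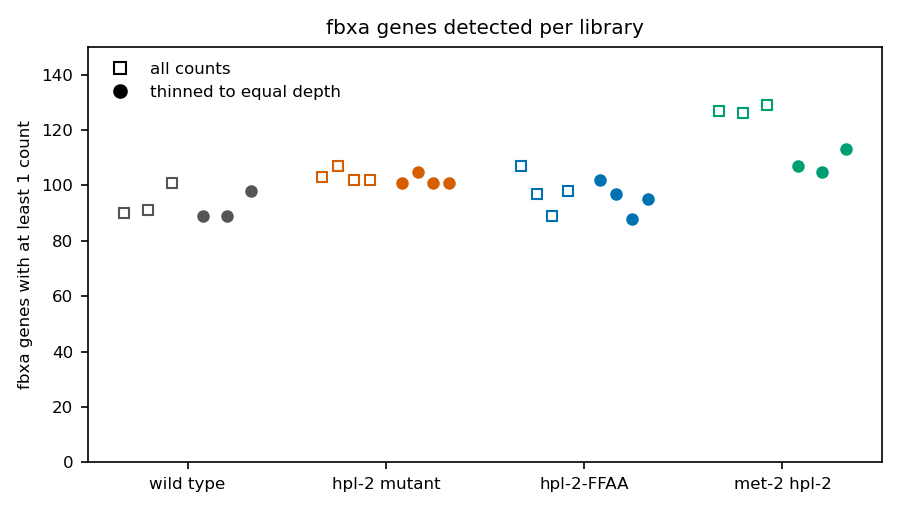
Number of fbxa genes with at least 1 count in each library, by genotype, before thinning (open squares) and after thinning every library to the same total (filled circles). Thinned met-2 hpl-2 libraries lie at 105 to 113 and thinned wild-type libraries at 89 to 98.

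In the hpl-2 deletion tested fbxa genes rose about as often as all genes, and fell less often. Of 44 tested members 10 rose and 5 fell in the hpl-2 mutant against wild type, with a median log2 fold change of 0.14 over the 44. Of the 6 most abundant members per kilobase, fbxa-215, fbxa-210, fbxa-206 and fbxa-101 rose, by a log2 of 0.35 to 0.55, and fbxa-83 and fbxa-192 fell. Among members with at least 3 CPM in wild type the largest fall was that of fbxa-103. Over all 9498 genes tested 41.8% were called, 20.2% higher and 21.6% lower with a median of 0.00, against 34.1% of the fbxa members, so the share of members called was not above that of all genes.

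In wild-type libraries fbxa-215 stood at 377, 389.9 and 361 CPM, and in hpl-2 mutant libraries at 470.0, 484, 493 and 505 CPM. Every mutant library was above every wild-type library, and the log2 fold change was 0.38 (SE 0.0677). In the same comparison fbxa-210 went from 72.8 ± 2.96 to 93.1 ± 7.73 CPM, a log2 of 0.35 (SE 0.0878). The next most abundant riser, fbxa-206, stood at 37.7, 36.2 and 34.1 CPM in wild type and 49.99, 53.9, 50.3 and 57.3 in the mutant (log2 0.55, SE 0.102). These levels did not overlap either. On chromosome I, the level of fbxa-101 was 26.6 ± 2.58 CPM in wild type and 37.4 ± 2.04 in the mutant, a rise with a log2 of 0.50 (SE 0.0839).

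Larger rises came from members with little RNA in wild type. The gene fbxa-104 (WBGene00011542, chromosome V, 15421529 to 15423683 on the minus strand), whose exons overlap those of fbxa-209 on the same strand, had 8.14, 7.25 and 4.29 CPM in wild type and 15.6, 11.6, 14.6 and 11.1 in the hpl-2 mutant. Its lowest mutant library was above its highest wild-type library, at a log2 of 1.01 (SE 0.187). From 2.85 ± 0.569 CPM, fbxa-145 (WBGene00018595, chromosome I, 5319712 to 5321151 on the plus strand) rose to 6.5 ± 0.547 (log2 1.18, SE 0.206). The remaining risers were fbxa-114, fbxa-197, fbxa-136 and fbxa-211, with log2 values of 0.56 (SE 0.172), 0.83 (SE 0.297), 0.93 (SE 0.361) and 2.57 (SE 0.813). Of these fbxa-136 lies outside the naming rule and was named after its value was seen. For fbxa-211, 2 counts over the 3 wild-type libraries stood against 18 over the 4 mutant libraries, a ratio of 6.64 with an exact 95% interval of 1.59 to 59.0 for counting error.

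The members that fell were fewer and lay on chromosomes I, III, IV and V. Levels of fbxa-103 (WBGene00008612, chromosome I, 14287826 to 14295954 on the minus strand) were 13.4, 16.9 and 12.2 CPM in wild type and 9.46, 6.31, 5.50 and 6.27 in the hpl-2 mutant, a log2 of -1.03 (SE 0.173). No library overlapped, though mutant replicate 1 was nearest to wild type. For fbxa-192 the values were 21.9, 24.8 and 23.2 CPM and 15.3, 15.7, 12.7 and 16.8 CPM (log2 -0.62, SE 0.106), again without overlap. From 14.1 ± 2.94 CPM, fbxa-153 (WBGene00007162, chromosome V, 15605673 to 15610384 on the minus strand) fell to 9.18 ± 1.23 (log2 -0.62, SE 0.151). The piRNA-overlapping gene fbxa-83 fell from 32.5 ± 1.8 to 25.8 ± 2.49 CPM (log2 -0.34, SE 0.0914). The low gene fbxa-13, named after its value was seen, fell from 1.67 ± 0.575 to 0.619 ± 0.147 CPM (log2 -1.41, SE 0.487), a direction partly fixed by the filter.

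BH-adjusted p of the 15 called members (edgeR QL) ran from 0.000163 (fbxa-103) to 0.0462 (fbxa-136). The calls of 5 members were lost in some alternatives, with BH-adjusted p (edgeR QL or DESeq2) of 0.10 for fbxa-114, 0.0526 to 0.0768 for fbxa-211, 0.0564 to 0.145 for fbxa-13, 0.0528 to 0.114 for fbxa-197 and 0.0508 to 0.192 for fbxa-136. For fbxa-114 this was without wild-type replicate 2, for fbxa-211 without wild-type replicate 2 or 3 or mutant replicate 4, and for fbxa-13 without wild-type replicate 3 or mutant replicate 2 or 4. For fbxa-197 it was without wild-type replicate 1 or 2 or mutant replicate 1 or 3, with DESeq2 and with the replicate block, and for fbxa-136 in 11 alternatives. Markers of embryo stage moved in this comparison too: of 10 maternal markers 8 were higher and 0 lower, and of 9 tested early zygotic markers 0 were higher and 5 lower. Of 6 tested later markers 2 were higher and 0 lower. Summed maternal markers stood at 6059 to 6208 CPM in wild type and 7063 to 8061 in the mutant, and summed zygotic markers at 502 to 505 and 381 to 426 CPM. Their part in the fbxa values was not tested.

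**Figure D3:**
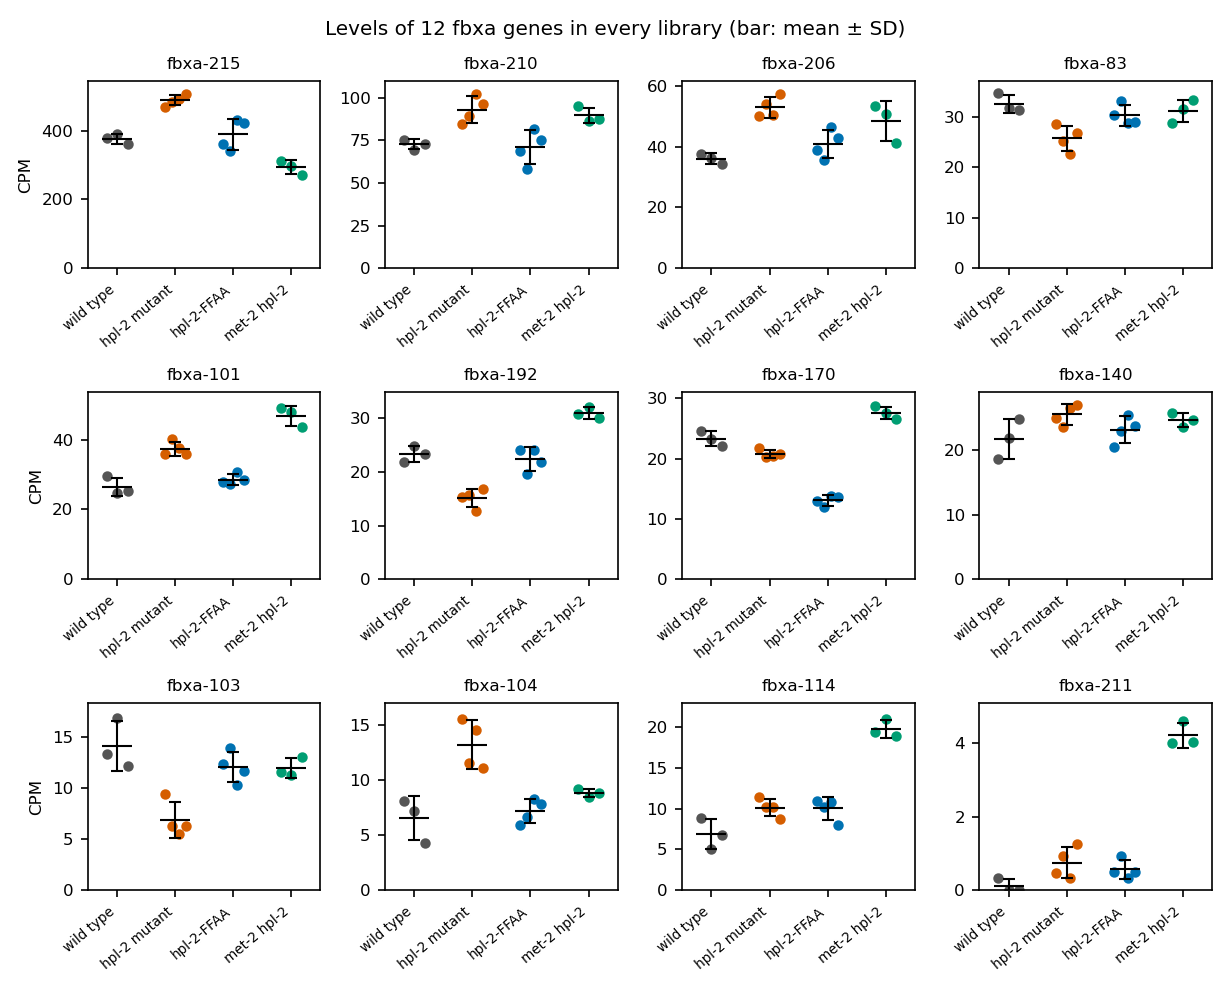
Levels of 12 fbxa genes, the 8 most abundant per kilobase and 4 others, in TMM-normalised CPM in every library of the 4 genotypes (points), with the mean and SD (black bars, cut at 0). The hpl-2 mutant points lie above wild type for fbxa-215, fbxa-210, fbxa-206, fbxa-101 and fbxa-104 and below it for fbxa-192 and fbxa-103, hpl-2-FFAA stands lowest for fbxa-170, and met-2 hpl-2 stands highest for fbxa-114 and fbxa-211.

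Against wild type, a single fbxa gene was called in hpl-2-FFAA. Of the 44 tested members fbxa-170 fell and 0 rose, where 0.779% of all genes tested were called (0.547% higher and 0.232% lower), and the median log2 fold change of the members was -0.01 against 0.00 over all genes. DESeq2 also called 1 member, of 150 tested, where 0.479% of all genes were called.

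Levels of fbxa-170 were 24.6, 23.3 and 22.1 CPM in wild type and 13.01, 11.9, 13.7 and 13.7 CPM in hpl-2-FFAA. All 4 hpl-2-FFAA libraries, from both sets of replicates, were below all others, with a log2 of -0.83 (SE 0.0906) and a BH-adjusted p of 4.07e-05 (edgeR QL). In the hpl-2 deletion the gene stood at 21.8, 20.3, 20.4 and 20.8 CPM, a log2 of -0.16 (SE 0.0839) that was not called. The call in hpl-2-FFAA was kept in every alternative run. The nearest tested gene on its right, meg-4, which encodes a P granule protein and starts 6.75 kb away, was also called, with a log2 of -0.34 (SE 0.0775, BH-adjusted p = 0.0466, edgeR QL). The nearest on its left, the T-box genes tbx-31 and tbx-32 with R09H3.3 between them, had values of 0.18 (SE 0.151), 0.14 (SE 0.214) and 0.52 (SE 0.549), none of them called. These neighbours were looked at after the value of fbxa-170 was seen.

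None of the other 43 tested members passed the threshold in this comparison. The gene fbxa-215 stood at 362, 339.9, 431 and 423 CPM in replicates 1 to 4, with replicates 3 and 4 above all wild-type libraries and replicate 2 below them, and its log2 value was 0.05 (SE 0.0679). Using only replicates 3 and 4 it was called higher (BH-adjusted p = 0.0292, edgeR QL), which made 2 called members in place of 1. With these replicates alone 8.44% of all genes tested were called, in place of 0.779%. The gene fbxa-145 stood at 4.90, 4.28, 5.43 and 3.75 CPM, above all wild-type libraries (2.21, 3.03 and 3.30 CPM), with a log2 of 0.68 (SE 0.221) and a BH-adjusted p of 0.246 (edgeR QL). For 3 of the 44 members the libraries did not overlap, or 6.82%, against 9.7% of all genes tested.

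The comparison of hpl-2-FFAA with the deletion asks how the altered allele differs from the deletion allele. Of 44 tested members 9 were lower and 5 higher in hpl-2-FFAA than in the deletion, where 35.2% of all genes tested were called (16.5% lower and 18.7% higher). The median log2 of the members was -0.18 against 0.00 over all genes. The hpl-2 mutant libraries also entered the comparison of the deletion with wild type, so a likeness between those values and these is not a separate result.

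Against the deletion fbxa-215 had a log2 of -0.33 (SE 0.0623), fbxa-210 of -0.39 (SE 0.0813), fbxa-206 of -0.37 (SE 0.092) and fbxa-101 of -0.39 (SE 0.0767). Levels of fbxa-104 were 5.91, 6.69, 8.31 and 7.83 CPM in hpl-2-FFAA, all below the deletion, at a log2 of -0.88 (SE 0.169). The gene fbxa-95 (WBGene00009222, chromosome V, 15571476 to 15572715 on the plus strand) had 3.72, 3.72, 4.58 and 4.24 CPM in hpl-2-FFAA and 6.62, 8.32, 6.01 and 8.42 in the deletion (log2 -0.85, SE 0.178), while its wild-type libraries (6.96, 4.72 and 4.45 CPM) overlapped those of the deletion. The members lower in hpl-2-FFAA also included fbxa-170 at -0.67 (SE 0.086), fbxa-197 at -0.71 (SE 0.269) and fbxa-145 at -0.50 (SE 0.172).

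Higher in hpl-2-FFAA than in the deletion were fbxa-103 with a log2 of 0.80 (SE 0.167), fbxa-192 with 0.57 (SE 0.0997), fbxa-153 with 0.44 (SE 0.145), fbxa-83 with 0.23 (SE 0.0862) and fbxa-13 with 1.26 (SE 0.469), the last a direction partly fixed by the filter. For fbxa-103 and fbxa-192 the hpl-2-FFAA libraries, at 12.3, 13.9, 10.3 and 11.7 and at 24.2, 19.5, 24.1 and 21.8 CPM, overlapped wild type and not the deletion. BH-adjusted p of the 14 calls (edgeR QL) ran from 3.01e-05 (fbxa-170) to 0.0476 (fbxa-197). Using only replicates 3 and 4 of hpl-2-FFAA, 8 members were called in place of 14, and without replicate 2 of that strain 9 were called. The calls of fbxa-197, fbxa-83, fbxa-145, fbxa-13 and fbxa-153 were lost under 18, 14, 9, 8 and 5 of the alternatives, with BH-adjusted p (edgeR QL or DESeq2) of 0.051 to 0.224, 0.0521 to 0.326, 0.0542 to 0.145, 0.0533 to 0.228 and 0.053 to 0.242. Removal of hpl-2-FFAA replicate 2 ended all 5 of these calls, and removal of a deletion replicate ended each of them for at least 2 of the 4. The call of fbxa-206 was lost with only replicates 3 and 4 (BH-adjusted p = 0.0975, edgeR QL). Stage markers differed here as well: of 10 maternal markers 8 were lower and 0 higher in hpl-2-FFAA than in the deletion, and of 9 early zygotic markers 0 were lower and 4 higher. Of 6 tested later markers 1 was lower and 1 higher. Their part in these differences was not tested.

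**Figure D4:**
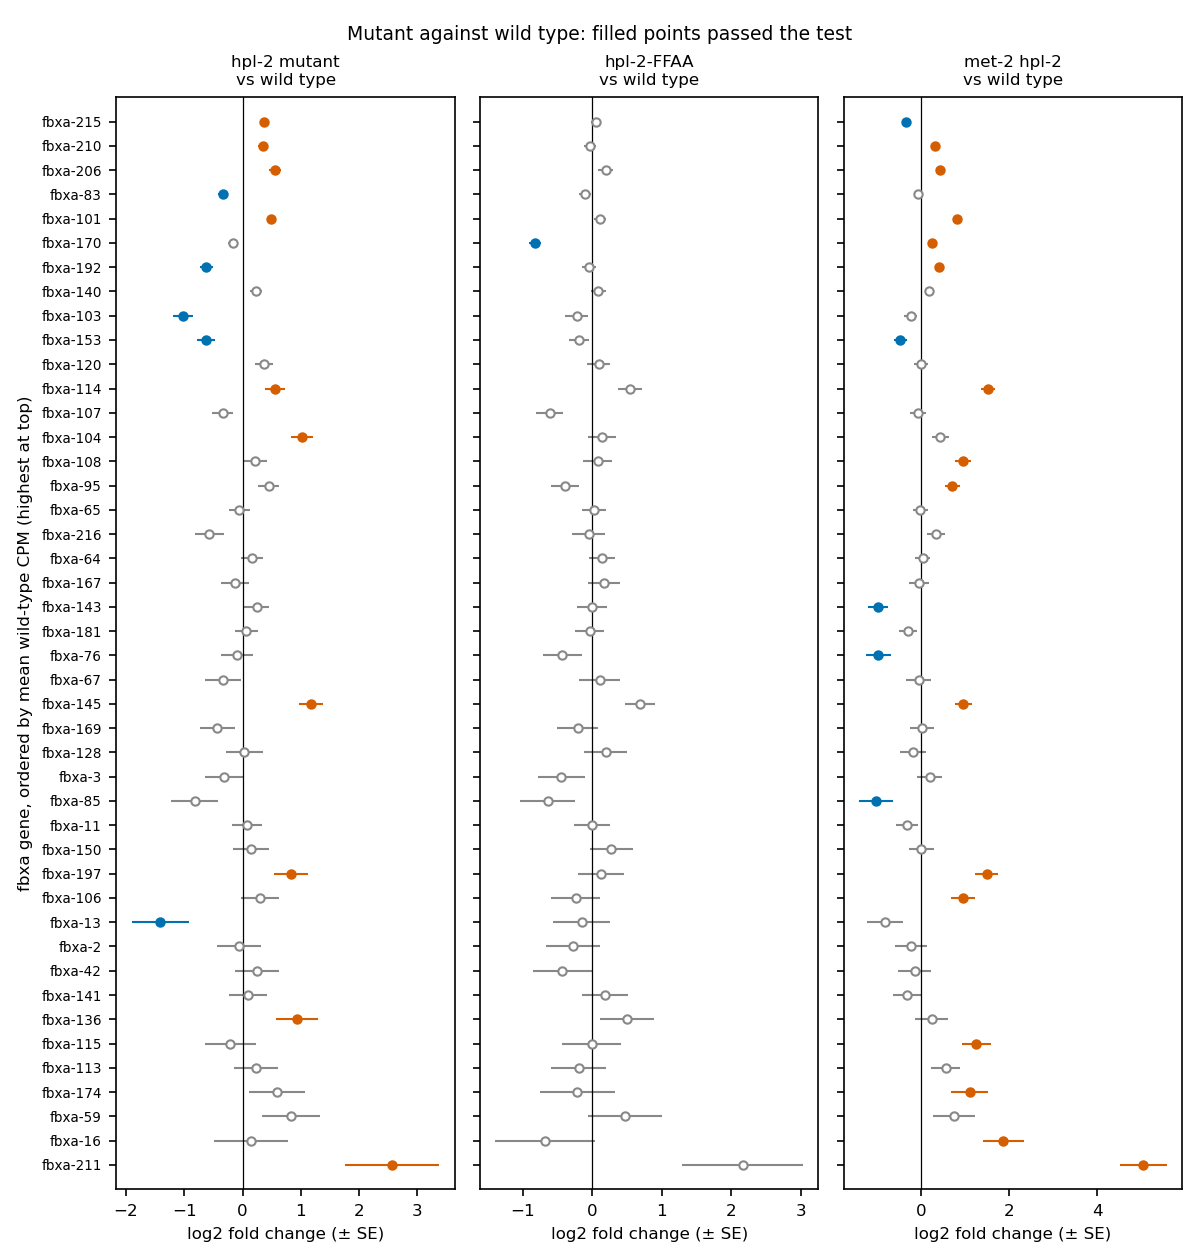
Log2 fold changes (± SE) of the 44 tested fbxa genes in each mutant genotype against wild type, ordered by mean wild-type CPM with the highest at the top. Orange points were called higher, blue points lower and open grey points were not called, with 10 and 5 in the hpl-2 mutant, 0 and 1 in hpl-2-FFAA, then 15 and 5 in met-2 hpl-2, and the horizontal scale differs between panels.

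The met-2 hpl-2 strain addresses what is added when the methyltransferase is affected as well. Here 15 of 44 tested members rose and 5 fell against wild type. The most abundant member, fbxa-215, was among those that fell. Of all genes tested 58.1% were called (28.7% higher and 29.4% lower), against 45.5% of the members, whose median log2 was 0.10 (0.00 over all genes). Since fbxa-16, fbxa-174 and fbxa-211 passed the low-count filter only with the met-2 hpl-2 libraries included, their rises were partly fixed by the filter and support nothing by themselves. All of them are among the 15 called higher.

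The largest rise was that of fbxa-211 (WBGene00012566, chromosome V, 18127519 to 18128888 on the plus strand). It had 0.339, 0 and 0 CPM in wild type, 0.473, 0.924, 0.344 and 1.25 in the deletion, and 0.507, 0.930, 0.339 and 0.489 in hpl-2-FFAA. The met-2 hpl-2 libraries had 4.00, 4.60 and 4.04 CPM. All met-2 hpl-2 libraries were above every other library. The ratio of met-2 hpl-2 (174 counts over 3 libraries) to wild type (2 counts over 3 libraries) was 37.7, with an exact 95% interval of 10.3 to 314 for counting error. Since the filter partly fixed the direction, this interval and the separation of the libraries describe the levels of fbxa-211 and are not support for a rise. The fitted log2 of fbxa-211, 5.05 (SE 0.531), depends on how such low counts are handled.

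Next in size among members above 3 CPM was fbxa-114 (WBGene00013758, chromosome V, 20201616 to 20202874 on the plus strand), with 8.82, 5.06 and 6.76 CPM in wild type and 19.4, 20.98 and 18.9 in met-2 hpl-2. The libraries did not overlap, at a log2 of 1.52 (SE 0.152). Levels of fbxa-197 (WBGene00011513, chromosome V, 15867673 to 15869051 on the plus strand) were 1.53, 1.85 and 2.14 CPM in wild type and 5.24, 5.63 and 4.69 in met-2 hpl-2 (log2 1.48, SE 0.262). From 1.34 ± 0.731 CPM, fbxa-115 (WBGene00013755, chromosome V, 20190535 to 20192152 on the minus strand) rose to 3.22 ± 0.488 (log2 1.25, SE 0.338). Both fbxa-101, at 49.03, 47.9 and 43.6 CPM (log2 0.82, SE 0.081), and fbxa-145 (log2 0.96, SE 0.202) were above all wild-type libraries. Smaller rises were those of fbxa-95 at 0.71 (SE 0.17), fbxa-206 at 0.43 (SE 0.101), fbxa-192 at 0.41 (SE 0.0944), fbxa-210 at 0.30 (SE 0.0883) and fbxa-170 at 0.24 (SE 0.0794). The other called rises, named after their values were seen, were fbxa-16 at 1.87 (SE 0.462), fbxa-174 at 1.10 (SE 0.421), fbxa-106 at 0.95 (SE 0.277) and fbxa-108 at 0.94 (SE 0.182).

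Among members that fell, fbxa-215 stood at 313, 297 and 272 CPM, all below wild type, with a log2 of -0.36 (SE 0.0714). The gene fbxa-143 (WBGene00044661, chromosome V, 16125794 to 16127501 on the minus strand) had 4.24, 5.39 and 4.29 CPM in wild type and 2.11, 3.0 and 1.95 in met-2 hpl-2 (log2 -0.98, SE 0.231). From 3.08 ± 0.673 CPM, fbxa-76 (WBGene00044675, chromosome III, 1247618 to 1249161 on the minus strand) fell to 1.55 ± 0.48 (log2 -0.98, SE 0.283). The other falls were fbxa-153 at -0.47 (SE 0.142) and fbxa-85, named after its value was seen, at -1.03 (SE 0.38). Since fbxa-85 passed the filter only with wild type included, its fall was partly fixed by it.

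BH-adjusted p of the 20 calls (edgeR QL) ran from 1.41e-07 (fbxa-101) to 0.0315 (fbxa-174). With no low-count filter 150 members were tested and 28 rose and 7 fell, where 34% of all genes tested were called. With met-2 hpl-2 counts thinned to the depth of the smallest library 13 rose and 5 fell of 43. In both settings the share of members called was below that of all genes tested. With the stricter filter (mean of at least 5 CPM) it was near that of all genes, at 11 of 18 members against 60%. The calls of fbxa-170, fbxa-153, fbxa-174 and fbxa-85 were lost under 5, 2, 5 and 4 of the alternatives, with BH-adjusted p (edgeR QL or DESeq2) of 0.0542 to 0.15, 0.0544 to 0.0571, 0.0519 to 0.158 and 0.0584 to 0.0982. Single libraries whose removal ended a call were wild-type replicate 3 for fbxa-170, wild-type replicates 1 and 2 for fbxa-153, wild-type replicates 2 and 3 and met-2 hpl-2 replicate 3 for fbxa-174, and wild-type replicates 1 and 2 and met-2 hpl-2 replicate 3 for fbxa-85. The call of fbxa-170 was lost with library size alone in place of TMM as well. Markers of later stages were higher in this strain: 6 of 6 tested later markers rose, with the muscle myosin gene myo-3 at 0.726 ± 0.191 CPM in wild type and 22.1 ± 6.04 in met-2 hpl-2. The 8 summed to 262 to 273 CPM in wild type and 375 to 438 in met-2 hpl-2. Most of that sum was lin-26, at 256 ± 5.25 CPM in wild type and 315 ± 22.7 in met-2 hpl-2. Of 9 early zygotic markers 8 fell and 0 rose, and of 10 maternal markers 2 rose and 3 fell. The vitellogenin genes, which encode yolk proteins of the adult intestine, summed to 2.47 to 3.37 CPM in wild type and 3.42 to 4.91 in met-2 hpl-2. The part of embryo stage in the fbxa values was not tested.

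Compared directly with the hpl-2 deletion, met-2 hpl-2 embryos had more members higher than lower, though both shares were below those of all genes. The 4 genes described first were also called in the deletion against wild type. Of 44 tested members 13 were higher and 6 lower, or 43.2% called, where 71.2% of all genes tested were called (36% higher and 35.2% lower). The median log2 of the members was 0.12, against 0.01 over all genes. The hpl-2 mutant libraries are again shared with the comparison to wild type.

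The levels of fbxa-192 ordered as 15.1 CPM in the deletion, 23.3 in wild type and 30.99 in met-2 hpl-2, where the libraries stood at 30.8, 32.2 and 30.05 CPM. It was lower than wild type in the deletion and higher in met-2 hpl-2, with no overlap in either, and the direct difference was a log2 of 1.03 (SE 0.0925). The gene fbxa-215 went the other way, above wild type in the deletion and below it in met-2 hpl-2, with a direct log2 of -0.73 (SE 0.0669). For fbxa-103 the deletion stood low and met-2 hpl-2 overlapped wild type at 11.6, 11.3 and 13.1 CPM (log2 0.79, SE 0.159 against the deletion). For fbxa-104 the deletion stood high, and met-2 hpl-2 at 9.24, 8.48 and 8.81 CPM was below it (log2 -0.58, SE 0.153).

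Genes with higher levels in met-2 hpl-2 than in the deletion also included fbxa-211 at 2.48 (SE 0.318), fbxa-115 at 1.47 (SE 0.315), fbxa-114 at 0.96 (SE 0.128) and fbxa-216 (WBGene00012953, chromosome I, 11901660 to 11903310 on the plus strand) at 0.91 (SE 0.212). The rises of fbxa-211 and of fbxa-16, which is also among the 13, were partly fixed by the filter here as well. Those with lower levels included fbxa-143 at -1.22 (SE 0.205), fbxa-76 at -0.89 (SE 0.263) and fbxa-120 (WBGene00016346, chromosome X, 17302719 to 17304036 on the plus strand) at -0.37 (SE 0.136). Levels of fbxa-210 and fbxa-206 gave direct log2 values of -0.05 (SE 0.0795) and -0.13 (SE 0.0885) that missed the threshold, and fbxa-206 was called lower with library size alone in place of TMM (BH-adjusted p = 0.0343, edgeR QL). BH-adjusted p of the 19 calls (edgeR QL) ran from 1.99e-08 (fbxa-192) to 0.0392 (fbxa-136). The call of fbxa-120 was lost without deletion replicate 1 or met-2 hpl-2 replicate 3 (BH-adjusted p = 0.0775 and 0.0707, edgeR QL). Those of fbxa-83 with library size alone (0.0707) and of fbxa-197 with thinned met-2 hpl-2 counts (0.165) were lost in the same test. Those of fbxa-136 and fbxa-106, both named after their values were seen, were lost under 6 and 5 of the alternatives (BH-adjusted p of 0.0554 to 0.174 and of 0.0523 to 0.118, edgeR QL or DESeq2), among them removal of deletion replicate 1 or 2 or met-2 hpl-2 replicate 3 for both. In this comparison 6 of 6 later markers were higher in met-2 hpl-2, and of 10 maternal markers 8 were lower and 0 higher. Of 9 early zygotic markers 2 were higher and 2 lower. The part of these markers of stage in the fbxa differences was not tested.

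**Figure D5:**
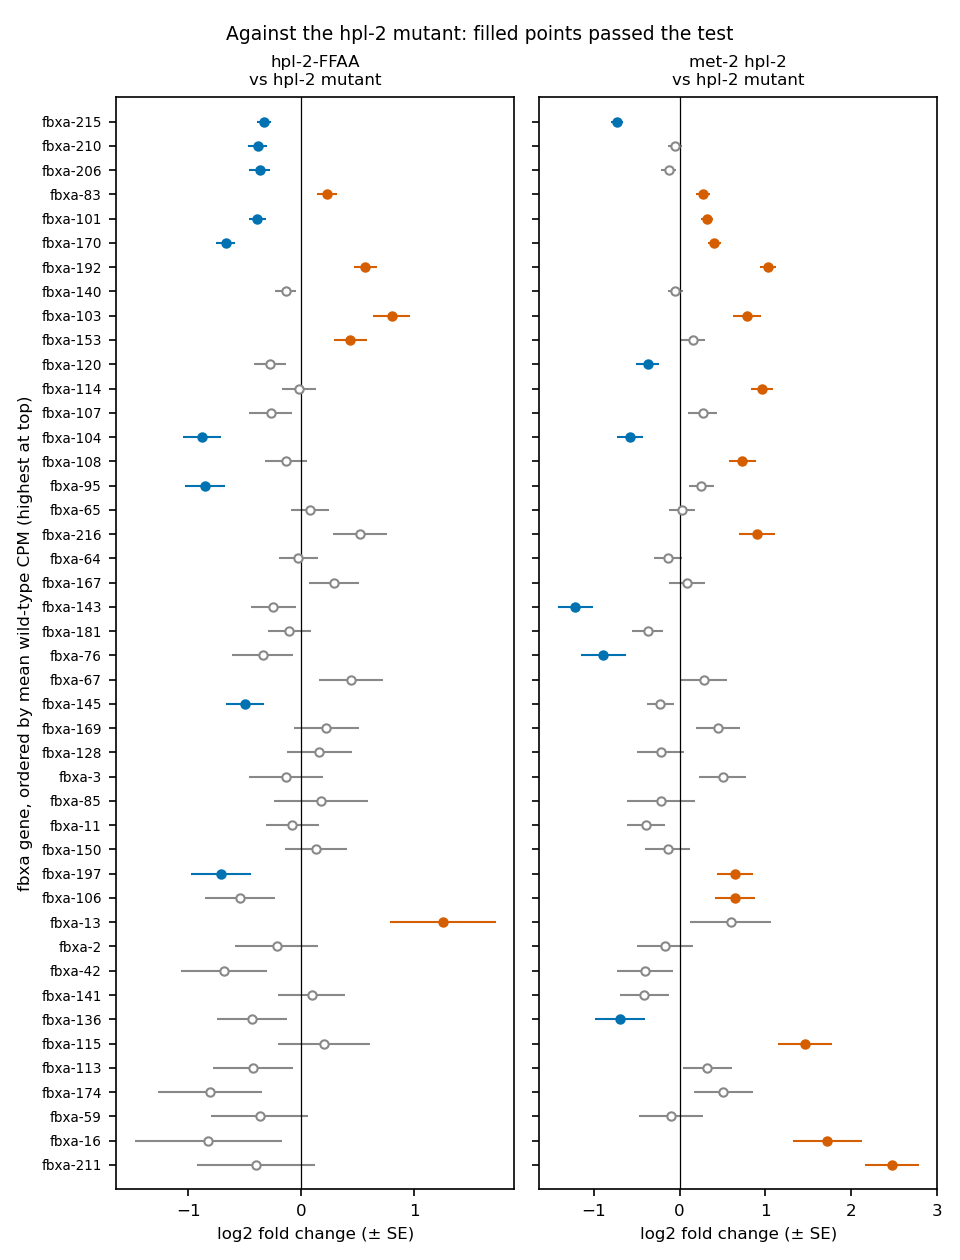
Log2 fold changes (± SE) of the 44 tested fbxa genes in hpl-2-FFAA (left) and met-2 hpl-2 (right) against the hpl-2 mutant, ordered by mean wild-type CPM. Orange points were called higher, blue points lower and open grey points were not called, with 5 and 9 on the left and 13 and 6 on the right, and the horizontal scale differs between panels.

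Family members lie close together in the genome. With members joined where starts were at most 20 kb apart, 117 of 170 stood in 25 runs of at least 2 genes, the longest with 26 members on chromosome III (1239048 to 1349450), of which 1, fbxa-76, was tested. A run of 10 on chromosome III (933422 to 963833) had 3 tested members, fbxa-59, fbxa-67 and fbxa-11. Their wild-type levels were 0.893 ± 0.346, 3.08 ± 0.885 and 2.24 ± 0.123 CPM, and none was called in any of the 5 comparisons. The other members of this run were fbxa-55, fbxa-56, fbxa-22, fbxa-60, fbxa-10, fbxa-54 and fbxa-51, each with a mean of at most 1.41 CPM in any genotype.

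A run of 4 on chromosome V (20187657 to 20204547) holds fbxa-116, fbxa-115, fbxa-114 and fbxa-113. In met-2 hpl-2 against wild type fbxa-114 and fbxa-115 rose, as given above, while fbxa-113, whose exons overlap fbxb-59 on the opposite strand, had a log2 of 0.56 (SE 0.331). The untested fbxa-116 stood at 0.445 ± 0.185 CPM in wild type and 0.606 ± 0.0385 in met-2 hpl-2. A run of 3 on the same chromosome (18123939 to 18128888), looked at after its values were seen, holds fbxa-107, fbxa-210 and fbxa-211 in that order on the plus strand. Their wild-type levels were 6.81, 72.8 and 0.113 CPM. Against wild type, met-2 hpl-2 gave log2 values of -0.07 (SE 0.172) for fbxa-107 and 0.30 (SE 0.0883) for fbxa-210. The adjacent pair fbxa-101 and fbxa-140 on chromosome I, both on the minus strand, had wild-type levels of 26.6 and 21.8 CPM. Per kilobase these were 22.9 and 14.9 CPM. In met-2 hpl-2 the first rose by a log2 of 0.82 (SE 0.081) and the second, at 25.8, 23.6 and 24.6 CPM, had a value of 0.18 (SE 0.101) that was not called, but was called without wild-type replicate 3 (BH-adjusted p = 0.0442, edgeR QL). Whether neighbours differed in response was not tested.

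The partners of F-box proteins in the ligase were abundant in the early embryo. The 16 genes of the SCF core and its regulators, among them cul-1, rbx-1 and the COP9 signalosome genes, summed to 3937 to 3974 CPM in wild type and 3775 to 3815 in the hpl-2 mutant. In that comparison, where 41.8% of all genes tested were called, 2 of 16 rose and 5 fell, a share near that of all genes. The Skp1 gene skr-2 had 219.7 ± 3.03 CPM in wild type and rose to 283 ± 8.91 (log2 0.37, SE 0.0486), while the E2 gene ubc-3 fell from 397 ± 11.6 to 328 ± 9.38 CPM (log2 -0.28, SE 0.0387). In hpl-2-FFAA 0 of 16 were called. In met-2 hpl-2, where 58.1% of all genes were called, 7 rose and 4 fell, again a share near that of all genes, with the COP9 gene csn-1 at 175 ± 7.48 CPM in wild type and 112 ± 2.30 in met-2 hpl-2 (log2 -0.64, SE 0.0455). Of 16 tested other Skp1-related genes, 12 fell in the deletion and 0 rose, with a median log2 of -0.33, where 21.6% of all genes were called lower and 20.2% higher. Levels of skr-7 went from 509.9 ± 4.08 to 382 ± 11 CPM (log2 -0.42, SE 0.0368). In met-2 hpl-2 against wild type 7 of these 16 rose and 2 fell (28.7% and 29.4% of all genes), with skr-12 at a log2 of 0.78 (SE 0.0626) and skr-13 at 0.67 (SE 0.0558). Many skr genes are close relatives that may share reads as well.

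The related F-box families gave other counts in the same fits. Of 98 tested fbxb genes 1 rose and 61 fell in the hpl-2 mutant against wild type, with a median log2 of -0.41, and of 31 tested fbxc genes 1 rose and 19 fell, with a median of -0.47, where 20.2% of all genes rose and 21.6% fell. The corresponding fbxa counts were 10 and 5 with a median of 0.14. In met-2 hpl-2 against wild type fbxb genes rose in 10 and fell in 27 cases, fbxc genes in 5 and 10, and fbxa genes in 15 and 5, where 28.7% of all genes rose and 29.4% fell. The difference between the families was not tested. Among 10 F-box genes whose symbols are not fbxa, fbxb or fbxc, 5 rose and 1 fell in the hpl-2 mutant. Their likeness to fbxa genes in sequence was not measured. The meiosis gene prom-1 stood at 94.5 ± 7.75 CPM in wild type and 139.6 ± 7.28 in the mutant (log2 0.56, SE 0.0790). The germline gene fog-2 gave 32.8 ± 2.38 and 47.3 ± 4.28 CPM (log2 0.52, SE 0.0853). In met-2 hpl-2 5 rose and 1 fell, among them ftr-1 from 7.33 ± 0.513 to 23.0 ± 1.61 CPM (log2 1.65, SE 0.129).

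Members known from the intracellular pathogen response, a transcriptional program against microsporidia and viruses of the intestine, were near or below detection in all genotypes. The gene fbxa-75 (WBGene00022476, chromosome III, 1303714 to 1305461 on the plus strand), which acts with the cullin CUL-6 in that response, had 0 counts in all 14 libraries. The gene fbxa-158 (WBGene00015602, chromosome II, 1619814 to 1621280 on the minus strand), which encodes another CUL-6 partner, had at most 3 counts in any library. For fbxa-182 (WBGene00018353, chromosome II, 2409633 to 2412749 on the minus strand) libraries held 1 to 6 counts, with means of 0.447 ± 0.258 CPM in wild type and 0.291 ± 0.146 in met-2 hpl-2. Of the 13 genes of this list 5 were tested. Levels of pals-25 went from 2.40 ± 0.757 CPM in wild type to 1.07 ± 0.155 in the hpl-2 mutant (log2 -1.15, SE 0.341), and cul-6 was at 1.06 ± 0.270 CPM in wild type and 0.533 ± 0.221 in met-2 hpl-2. In met-2 hpl-2 1 of the 5 fell against wild type, again pals-25 (log2 -0.79, SE 0.297).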

How the data were processed

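The deposited table gives raw counts (whole numbers) of 20392 genes in 14 libraries, and a gene width in bases. Each column carried 1 sample's title. The submitters' processing notes name Trimmomatic 0.39 and ce10. The sources used here do not name the aligner, counting program, annotation or strand setting. Per the labels' protocols, ribosomal RNA was removed and stranded libraries were built. Symbols and positions came from the WBcel235 annotation, matched by identifier (19182 of 20392 with a symbol, 19870 with a position), and were not converted to ce10.

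The counts went through edgeR 4.0.16 in R 4.3.3 (low-count filter, TMM scaling, quasi-likelihood test, 4 groups in a single fit). Calls needed an adjusted p (Benjamini and Hochberg) under 0.05 over the 9498 genes tested, in each of 5 comparisons. SE is the log2 fold change over the root of its F. The code was tested on simulated data. Alternatives were other scalings and filters, DESeq2 1.42.0, the groups compared alone, a replicate block, leaving out each library, hpl-2-FFAA pairs alone and thinned counts. Each library was counted as 1 sample. All 18 replicate pairs differed beyond sampling noise by a chi-square test, which cannot tell technical spread from spread between cultures.

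The members and lists were chosen with earlier results of these data known. Members were named by rule: in each comparison the 5 largest rises and 5 largest falls among called members whose higher group reached 3 CPM and whose libraries did not overlap, the 8 most abundant per kilobase in wild type, 3 pathogen response genes, the 2 chromosomal runs with most tested members, and up to 2 called genes of each other list. Near-identical copies could not be named or summed without sequences.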

Additional observations from a re-analysis of the deposited data

Results flagged for a closer look

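In hpl-2-FFAA replicate 2, fbxa-113 stood at 0.558 CPM, below the other 3 libraries of the genotype, which lay between 1.18 and 1.30 CPM. The gap to the nearest library was 0.837 of the whole range, above the 95% critical value of 0.829 for 4 samples. This was 1 of 92 groups of 4 libraries examined over the 44 tested members and the family sums, and chance alone gives about 1 in 20. The cause was not tested.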

How the results depend on the processing

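Of the 4689 settings tried for single members, 4412 kept their direction and their side of the threshold, 110 lost a call and 27 gained one. In the other 140 the sign changed between values that were called in neither setting, and no called value changed sign. Counts of called members moved by more than 1.5 times in these cases. Against wild type, met-2 hpl-2 had 20 called members, 35 with no low-count filter and 11 with a stricter one (mean of at least 5 CPM), which test 150 and 18 members in place of 44. Against the hpl-2 mutant it had 19, and 29 and 10 under these filters. The share of all genes called moved too, against wild type to 34% with no filter and 60% with the stricter one. For hpl-2-FFAA with replicates 3 and 4 alone the count was 2 in place of 1 against wild type and 8 in place of 14 against the hpl-2 mutant, with 2 fewer libraries in the fit. Of all genes tested 8.44% in place of 0.779% were called against wild type, and 15.3% in place of 35.2% against the hpl-2 mutant. Leaving out a replicate gave 12 to 15 called members for the hpl-2 mutant, 1 in each case for hpl-2-FFAA and 19 to 23 for met-2 hpl-2 against wild type. Against the hpl-2 mutant it gave 9 to 14 for hpl-2-FFAA and 16 to 23 for met-2 hpl-2. The summed fbxa level of met-2 hpl-2 was 756.8 CPM with library size alone, below the wild-type 777.1, where TMM gave 798.3 and 771.3. This setting was chosen after seeing the data. Same-numbered replicates had correlations of -0.27 to 0.248 over 19 pairs, 3 of them above 0.1, and the numbers were not taken as pairs. These 3 were all between the hpl-2 mutant and hpl-2-FFAA, at 0.207, 0.129 and 0.248 for replicates 1, 3 and 4. Replicate 2 gave -0.00871 there. With the replicate block the counts were 14, 1 and 20 against wild type and 12 and 18 against the hpl-2 mutant. Depth limits members under about 1.68 CPM. Summing near-identical copies was not run, since no sequences were at hand.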
